A study of Mus musculus with 2 samples.

Results

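The genes described here are 34 mouse genes of nucleotide excision, base excision and mismatch repair, taken by gene symbol from the 23183 genes measured in each of 2 RNA-seq libraries of *K-Ras*-activated lung cancer cells. All 34 symbols were found: 12 belong to nucleotide excision repair, 16 to base excision repair and 6 to mismatch repair. Both records name immortalized lines derived from lung cancers of KPR L/F mice without tamoxifen. 1 library is labelled KPR- with the genotype RUNX3 -/-, and the other KPR_restored with the genotype RUNX3 -/+, the cells after *Runx3* restoration. The mice, of mixed background, carried a Cre-activated oncogenic *K-Ras* allele, *p53* flox/flox, *Runx3* flox/FSF, a Tomato reporter and Flp ERT2. Adenovirus with CMV promoter-driven Cre activated *K-Ras* and inactivated *p53* and *Runx3* flox, so the cells of both libraries carry the *p53* deletion by design. 4-hydroxytamoxifen (4-OHT) then activates Flp, which removes the stop cassette of *Runx3* FSF. The titles of the records give 0 h for KPR- and 16 h for KPR_restored, and the treatment label is 1 μM 4-OHT for both. Whether a line is a single clone is not given in the sources used here. Each condition is 1 library, so no difference below has a replicate check, and no p-value is given.

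The repair pathways differ in the damage they remove. Nucleotide excision repair cuts out a short single strand around bulky lesions such as those made by ultraviolet light, found either by a scanning complex or by a stalled RNA polymerase. Base excision repair begins with a glycosylase that removes 1 damaged base, after which the abasic site is cut, filled and sealed. Mismatch repair removes errors that DNA polymerases leave behind at replication, through MutS proteins that find the mismatch, MutL proteins that direct the cut and an exonuclease that removes the strand.

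The deposited values are FPKM, fragments per kilobase of transcript and per 1 M fragments, which scales for transcript length and depth. A trend of the differences with transcript length remained between the libraries and is given below. The steps of the low values corresponded to about 21.9 M and 22.5 M fragments in the libraries labelled KPR- and KPR_restored. *Runx3* had 0.348 and 0.349 FPKM (about 28 and 29 fragments), so its restoration was not visible in the value per gene. That value does not separate the restored allele from other transcripts, and the labels could not be checked by it. The 6 epithelial markers ranged from 91.6 to 1931 FPKM, whereas *Sftpc*, *Sftpb*, *Sftpa1* and *Scgb1a1*, which define alveolar and airway cells of the lung, were listed at 0 in both libraries. The other genes of that list, *Ager* and *Nkx2-1*, had 0.708 and 0.920 FPKM and 0.0444 and 0.0216 FPKM. The summed levels of 8 fibroblast markers were 12.7 and 5.35 FPKM, those of 7 leukocyte markers 3.13 and 6.79 FPKM and those of 5 endothelial markers 1.19 and 2.24 FPKM, carried by *Col1a1*, *Cd68* and *Kdr*. Their part in the results was not tested. Throughout, a pair of values gives the library labelled KPR- before the library labelled KPR_restored, and every direction is that of the library labelled KPR_restored against the library labelled KPR-. In bulk RNA, fewer cells of a kind and less RNA per cell cannot be told apart.

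Most of the repair genes fell short of the threshold given next, and 9 reached it. Of these 9, 8 belong to base excision and mismatch repair. Those pathways also supply most of the genes, with 15 and 6 of the 33 that passed the filter. Differences were taken as log2(FPKM + 0.005) in KPR_restored minus KPR-, and a gene was called higher or lower at 0.5 or more. A filter kept genes whose FPKM averaged 1 or more over the libraries, which left out 1 of the 34, the glycosylase gene *Neil2*, and kept 33. Among the 33, 3 were higher (*Neil1*, *Xpa* and *Polb*) and 6 were lower (*Ung*, *Msh3*, *Exo1*, *Parp1*, *Neil3* and *Tdg*), while 24 were neither. Over all 11231 genes that passed this filter, 12.1% were higher and 9.29% were lower, against 9.09% and 18.2% of the repair genes. The median difference was -0.027 over the 33 genes and 0.0086 over all 11231. The 95% interval of each difference, from the estimated fragments, covers counting error only. It lay above 0 for 9 of the 33 genes and below 0 for 10, while over the 10790 genes with an estimate 34.4% lay above 0 and 33.1% below, which together is 67.5%. No difference between the pathways could be tested.

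**Figure D1:**
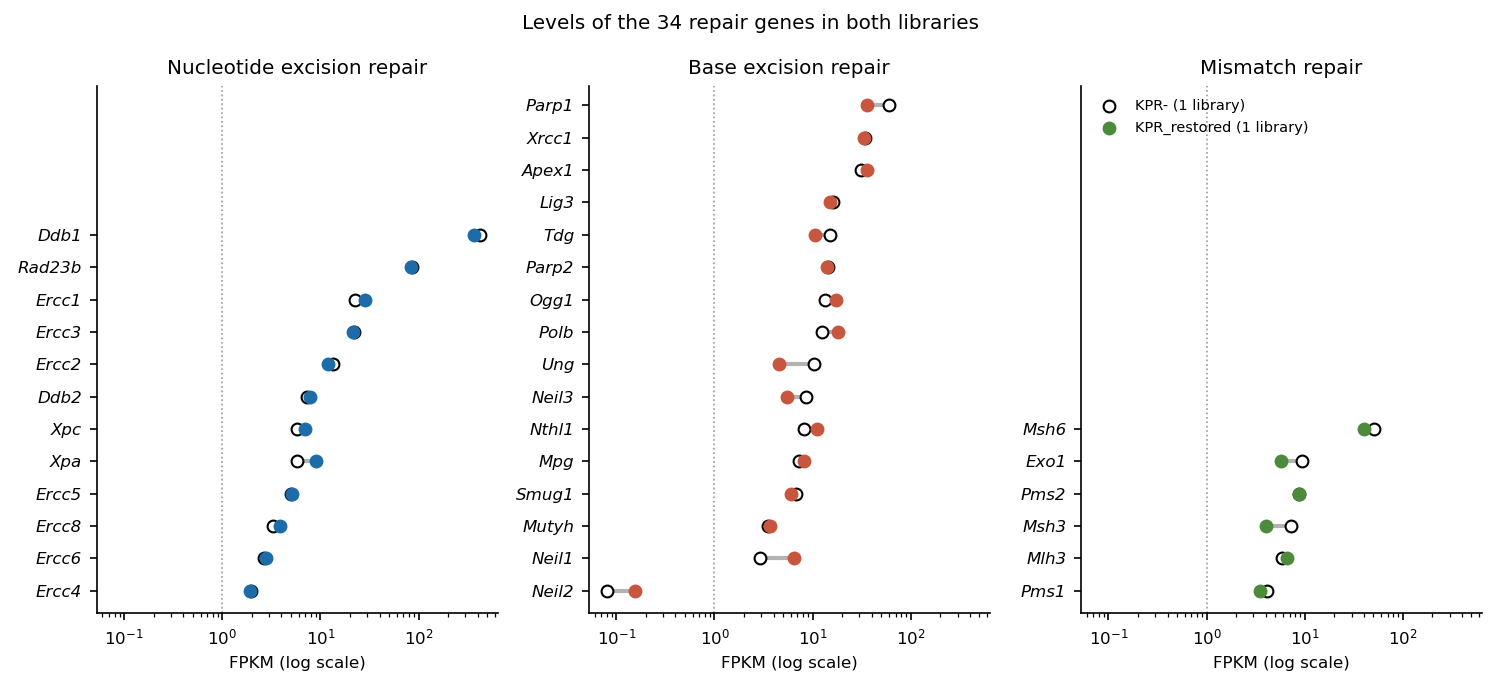
Levels of the 34 repair genes, in FPKM on a log axis, with 1 panel for each pathway. Open circles are the KPR- library and filled circles the KPR_restored library, 1 library each, and the dotted line marks 1 FPKM. *Ddb1* was highest at 418 and 366 FPKM, *Neil2* was the only gene under 1 FPKM, and the widest gaps are those of *Ung* and *Neil1*.

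Nucleotide excision repair genes had the narrowest spread of the 3 pathways, with a median difference of 0.056. Of the 12, 1 was higher (8.33%) and 0 were lower, against 12.1% and 9.29% of all genes that passed the filter. The gene outside the threshold was *Xpa*, whose protein holds the opened DNA and the incision factors together. It had 5.74 and 8.97 FPKM (about 93 and 150 fragments), 0.64 higher on the log2 scale (interval 0.27 to 1.04).

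The damage sensors covered a wide range of levels. *Ddb1*, the adaptor of the CUL4 ubiquitin ligase that also serves outside repair, had 418 and 366 FPKM, a difference of -0.19 (interval -0.21 to -0.17). Its partner in ultraviolet damage recognition, *Ddb2*, had 7.26 and 7.82 FPKM, a difference of 0.11 whose interval of -0.16 to 0.38 covered 0. *Xpc*, which finds the distorted helix, had 5.81 and 6.96 FPKM, a difference of 0.26 (interval 0.077 to 0.45), and *Rad23b*, which stabilises it, had 85.7 and 82.9 FPKM. The sensors of stalled RNA polymerase were low in both libraries, with 2.67 and 2.81 FPKM for *Ercc6* and 3.25 and 3.84 FPKM for *Ercc8*, and the intervals of both covered 0. With the length trend removed, the difference of *Ercc6* was 0.29, above the upper limit of its interval, 0.25.

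The TFIIH helicase genes differed little. *Ercc2* had 13.4 and 11.8 FPKM, a difference of -0.18 (interval -0.31 to -0.044), and *Ercc3* had 21.9 and 21.2 FPKM with an interval that covered 0. Among the incision nucleases, *Ercc1* had 22.3 and 28.4 FPKM, a difference of 0.35 (interval 0.19 to 0.51). *Ercc4*, which encodes the catalytic partner of Ercc1, had 1.98 and 1.90 FPKM, and *Ercc5*, the nuclease of the other side of the lesion, had 4.99 and 5.14 FPKM. Neither interval excluded 0.

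**Figure D2:**
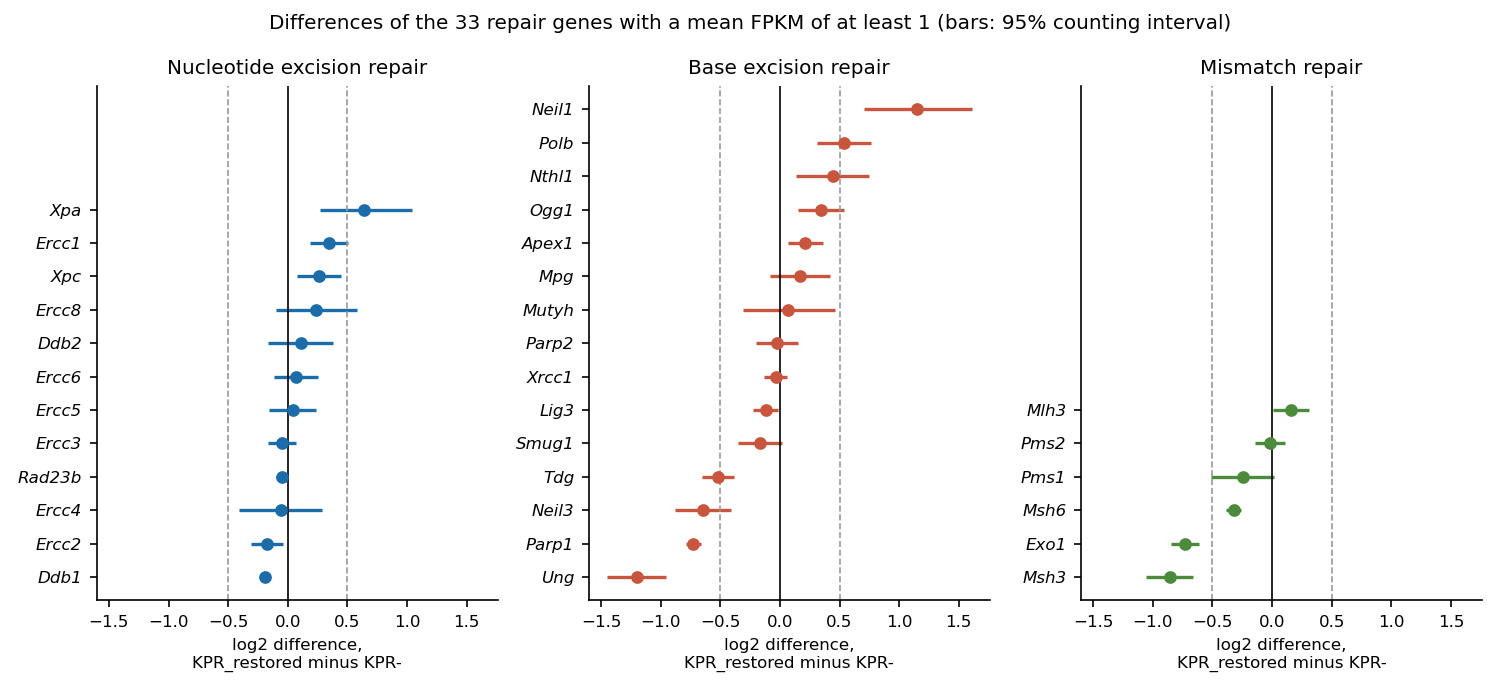
log2 differences (KPR_restored minus KPR-) of the 33 repair genes that passed the filter, 1 panel for each pathway. Points are the differences from 1 library each, bars the 95% counting intervals from estimated fragments, and dashed lines mark 0.5 either way. Nucleotide excision repair genes sit between -0.19 and 0.64, and base excision repair genes spread from -1.20 (*Ung*) to 1.15 (*Neil1*).

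Base excision repair genes spread the most and in both directions. Of the 15 that passed the filter, 2 were higher (13.3%) and 4 were lower (26.7%), with a median of -0.027. The shares over all genes that passed were 12.1% and 9.29%. The glycosylase genes held both ends of this spread. *Ung*, which removes uracil from DNA, mostly behind the replication fork, had 10.4 and 4.54 FPKM (about 438 and 196 fragments), so that the library labelled KPR_restored held 43.6% of the level in the other. Its log2 difference was -1.20, with an interval of -1.45 to -0.95.

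The other glycosylases of uracil and thymine were also below 0. *Tdg*, which removes thymine from G:T pairs and oxidised methylcytosine, had 15.2 and 10.6 FPKM, a difference of -0.52 (interval -0.66 to -0.39), close to the threshold. *Smug1*, another uracil glycosylase of the nucleus, had 6.72 and 5.99 FPKM and an interval from -0.35 to 0.020. The level of *Ung* was 1.55 times that of *Smug1* in the library labelled KPR- and 0.758 times in the library labelled KPR_restored, a change of the ratio of -1.03 on the log2 scale (exact counting interval -1.35 to -0.72). Summed over the 3 genes, the level went from 32.3 to 21.1 FPKM.

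Among the 7 glycosylases of oxidised and alkylated bases, 5 of the 6 that passed the filter lay above 0, as did 5728 of all 11231 genes. *Neil1*, which acts on oxidised pyrimidines, had 2.90 and 6.45 FPKM (about 61 and 139 fragments), a difference of 1.15 (interval 0.70 to 1.61). *Ogg1*, which removes 8-oxoguanine, had 13.5 and 17.1 FPKM, a difference of 0.34 (interval 0.15 to 0.54), and *Nthl1*, another glycosylase of oxidised pyrimidines, had 8.17 and 11.1 FPKM, a difference of 0.44 (interval 0.14 to 0.75). *Mutyh*, which removes adenine opposite 8-oxoguanine, had 3.47 and 3.65 FPKM, and *Mpg*, the glycosylase of alkylated purines, had 7.34 and 8.25 FPKM, both with intervals that covered 0, and *Mutyh* fell below 0 once the trend with transcript length was removed. The exception in sign was *Neil3*, a glycosylase known from dividing cells, with 8.49 and 5.43 FPKM, a difference of -0.64 (interval -0.88 to -0.41). *Neil2* had 0.0804 and 0.156 FPKM, which stood for about 3 and 6 fragments, and its interval ran from -1.27 to 3.59. The summed level of all 10 glycosylases was 76.3 and 73.3 FPKM, of which *Ung* made up 13.6% and 6.19%.

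Downstream of the glycosylases, *Polb*, the gap-filling polymerase, was the gene past the threshold, with 12.6 and 18.2 FPKM, a difference of 0.54 (interval 0.32 to 0.77). *Apex1*, the endonuclease of abasic sites, had 30.9 and 35.8 FPKM, a difference of 0.21 (interval 0.065 to 0.36). The scaffold *Xrcc1* had 34.5 and 33.7 FPKM and its partner ligase *Lig3* had 16.1 and 14.9 FPKM, with a difference of -0.12 (interval -0.22 to -0.013) for *Lig3* and an interval that covered 0 for *Xrcc1*. *Parp1*, the main sensor of DNA strand breaks that makes poly(ADP-ribose), had 59.6 and 36.1 FPKM (about 4779 and 2971 fragments), a difference of -0.72 (interval -0.79 to -0.66). *Parp2*, which shares this activity, had 14.3 and 14.1 FPKM with an interval that covered 0. The ratio of *Parp1* to *Parp2* was 4.16 and 2.56, a change of -0.70 on the log2 scale (interval -0.89 to -0.51).

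Mismatch repair genes had the lowest median of the pathways, at -0.28, with 2 of 6 lower, 0 higher and 5 below 0. Over all genes that passed the filter, 9.29% were lower, 12.1% were higher and 49.0% were below 0. *Msh3*, the MutS subunit that recognises larger insertion and deletion loops, had 7.24 and 4.00 FPKM (about 592 and 336 fragments), a difference of -0.86 (interval -1.05 to -0.66). *Msh6*, the alternative subunit for base mismatches, had 50.4 and 40.4 FPKM, a difference of -0.32 (interval -0.38 to -0.26). *Msh6* was thus 6.96 times as high as *Msh3* in the library labelled KPR- and 10.1 times as high in the library labelled KPR_restored, a change of 0.53 on the log2 scale (interval 0.33 to 0.74). *Exo1*, the exonuclease that removes the mismatched strand, had 9.42 and 5.69 FPKM (about 1564 and 970 fragments), a difference of -0.73 (interval -0.85 to -0.61).

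The MutL genes stood apart from *Msh3* and *Exo1*. *Pms2*, which encodes the endonuclease subunit, had 8.77 and 8.66 FPKM, *Pms1* had 4.13 and 3.49 FPKM, and the intervals of both covered 0, while *Pms2* turned positive once the length trend was removed. *Mlh3*, known for its part in meiotic crossovers, had 5.86 and 6.55 FPKM, a difference of 0.16 (interval 0.012 to 0.31). Their summed level was 18.8 and 18.7 FPKM, against 57.7 and 44.4 FPKM for the MutS genes *Msh3* and *Msh6*.

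Where proteins act as pairs, the levels per length of the partners were often unequal in both libraries. *Ercc1* was 11.3 and 14.9 times as high as *Ercc4*, *Ddb1* 57.6 and 46.8 times as high as *Ddb2*, and *Rad23b* 14.8 and 11.9 times as high as *Xpc*. On the log2 scale these 3 ratios changed by 0.41 (interval 0.022 to 0.79), -0.30 (-0.57 to -0.025) and -0.31 (-0.50 to -0.12). These counting intervals excluded 0, those of *Ercc1* to *Ercc4* and of *Ddb1* to *Ddb2* narrowly. The partners in those pairs differ in transcript length, with 1375 and 3480 bases and 4459 and 1557 bases. The length trend was not removed from the ratios. *Xrcc1* was 2.14 and 2.26 times as high as *Lig3* and *Ercc3* was 1.64 and 1.79 times as high as *Ercc2*, with intervals from -0.059 to 0.23 and from -0.048 to 0.31.

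The other genes of the same pathways were described from lists. Of 16 further nucleotide excision repair genes, which include the other TFIIH subunits, all passed the filter. Of these, 0 were higher and 0 were lower, against 12.1% and 9.29% of all genes that passed the filter. The median was 0.078, which turned to -0.020 with the trend with transcript length removed. *Mnat1*, of the TFIIH kinase, had 11.7 and 15.7 FPKM, and *Xab2*, which binds Xpa, had 23.3 and 30.8 FPKM. *Cul4b*, a scaffold of the ligase that holds Ddb1, had 40.9 and 32.6 FPKM, and *Usp7*, a deubiquitinase, had 37.8 and 31.1 FPKM. Like the members, these genes stayed close together in the libraries.

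Of 10 further base excision and strand break repair genes, 2 were higher (20%) and 0 were lower, with a median of -0.031. The shares over all genes that passed the filter were 12.1% and 9.29%. *Aptx*, which cleans up DNA ends after failed ligation, was the highest, with 1.16 and 2.19 FPKM (difference 0.91). *Hmgb1*, an abundant chromatin protein that also aids repair, had 380 and 276 FPKM, and *Mbd4*, a further thymine glycosylase, had 6.46 and 4.63 FPKM, with differences of -0.46 and -0.48.

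The lists that serve DNA replication lay lower. Of 19 genes of resynthesis and ligation, which all of these repair pathways share with replication in part, 4 were lower (21.1%) and 1 was higher (5.26%). Over all genes that passed the filter, 9.29% were lower and 12.1% were higher. Of the 19 genes, 15 were below 0, and the median was -0.33. *Pole*, the leading strand polymerase, had 21.1 and 12.3 FPKM, and *Rfc5*, of the clamp loader, had 40.9 and 25.1 FPKM. The higher gene was *Pold4*, the smallest subunit of polymerase delta, with 40.2 and 66.4 FPKM, and *Pole3* had 44.8 and 50.2 FPKM. Of 26 genes of G1/S and S phase, 13 were lower (50%), 0 were higher, and the median was -0.47. *Ccne2*, a cyclin of S phase entry, had 4.42 and 1.89 FPKM, *Mcm6*, of the replicative helicase, had 86.6 and 45.8 FPKM, *Cdt1*, which loads it, had 45.0 and 53.6 FPKM, and *Dscc1*, of an alternative clamp loader, had 9.17 and 9.39 FPKM. Of these 26 genes, 24 were below 0, against 18 of the 33 repair genes and 49.0% of all genes that passed the filter. *Cdt1* and *Dscc1* were above 0. The part of S phase genes in the differences of the repair genes was not tested. The 15 housekeeping genes had a median of -0.041, with 0 higher and 0 lower, or 1 lower with the length trend removed.

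**Figure D3:**
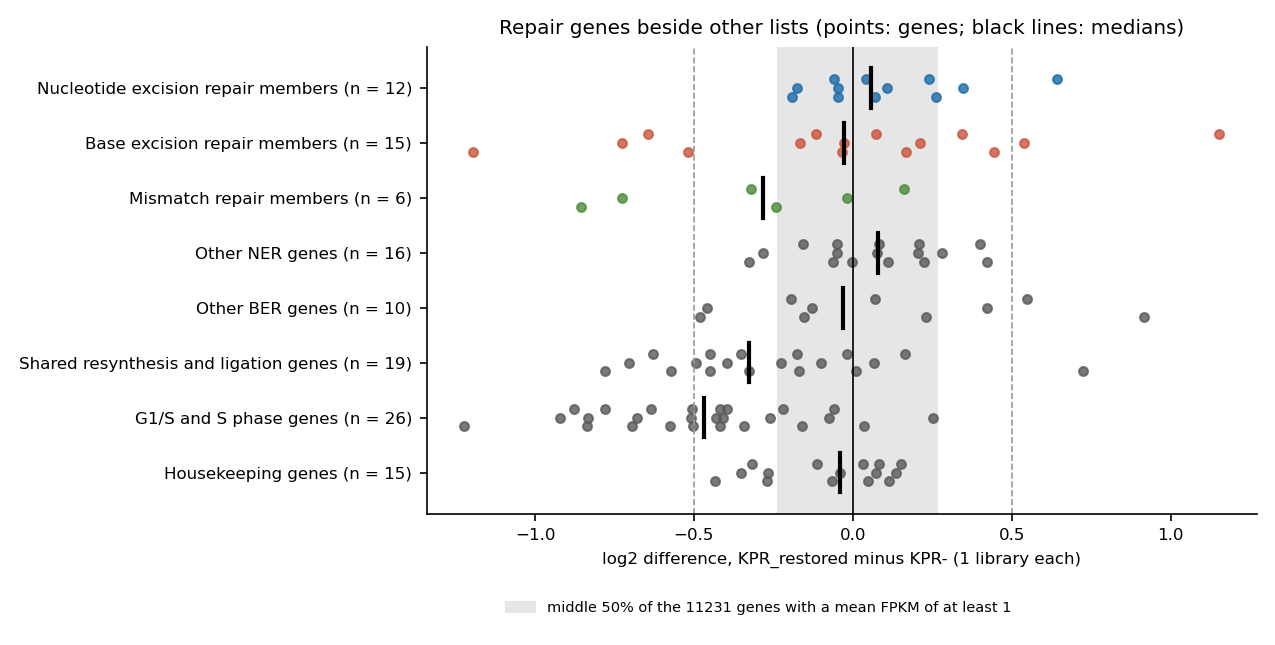
log2 differences (KPR_restored minus KPR-) of the repair genes beside other lists (NER and BER stand for nucleotide and base excision repair), for genes that passed the filter. Each point is a gene measured in 1 library each, black lines are medians, the grey band holds the middle 50% of 11231 genes (-0.23 to 0.27), and dashed lines mark 0.5 either way. The medians run from -0.47 for G1/S and S phase genes to 0.078 for other nucleotide excision repair genes, the latter being -0.020 with the length trend removed.

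Over all genes, longer transcripts had lower differences. In 20 bins of transcript length, the median difference went from 0.085 in the bin of the shortest transcripts to -0.22 in that of the longest. The higher repair genes have short transcripts, of 955 bases for *Xpa*, 1170 for *Neil1* and 1201 for *Polb*, while *Exo1* has one of 7796 bases. With the median of each bin subtracted, the difference of *Polb* was 0.45, below the threshold, and that of *Exo1* was -0.57. *Neil1*, *Xpa* and the 6 lower genes stayed past the threshold under this correction.

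**Figure D4:**
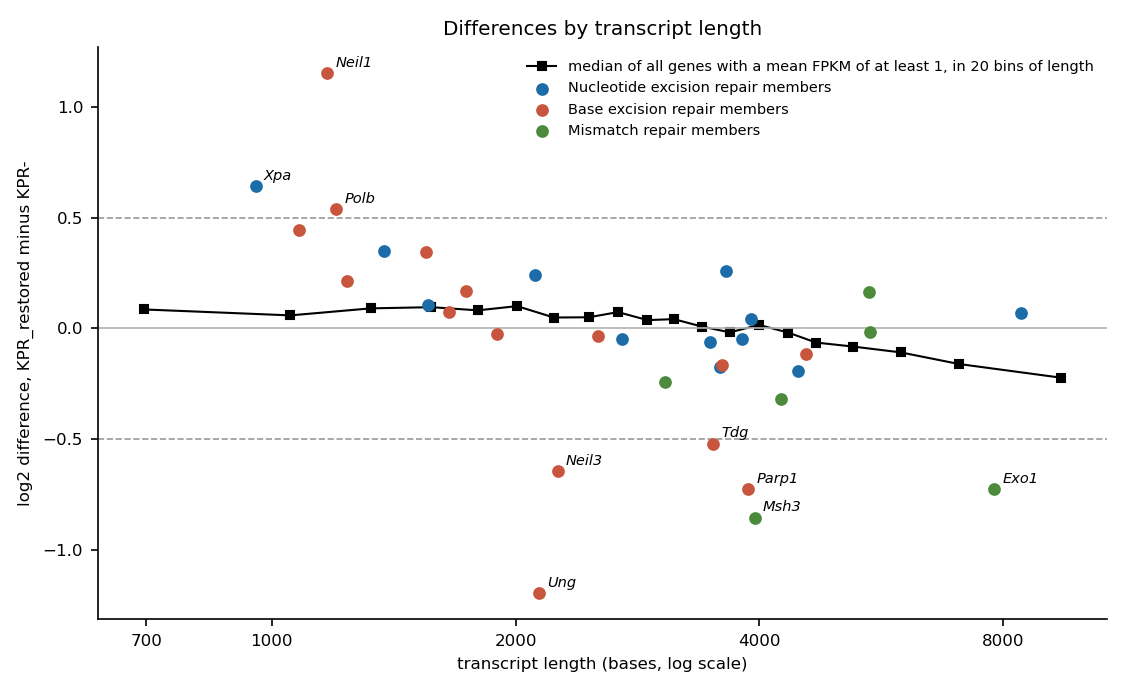
log2 difference (KPR_restored minus KPR-) against transcript length in bases on a log axis, for the 33 repair genes that passed the filter. Points are genes, coloured by pathway and named where past 0.5 either way (dashed lines), and black squares are medians of all genes in 20 bins of length. The bin medians run from 0.10 to -0.22, and *Ung*, *Neil1* and *Msh3* lie farthest from them.

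Several repair genes overlap or abut another gene on the opposite strand. The libraries were directional, but whether strand was used in the counting is not given in the sources used here, so reads of overlapping exons may not be separable. Exons of 7 of the 34 genes overlapped those of an opposite gene by 50 bases or more. The largest overlaps were those of *Mpg* with *Nprl3*, over 42.5% of its exon bases, and of *Ddb2* with *Acp2*, over 23.6%. *Ercc2* overlaps *Klc3* over 588 bases (16.4%), and *Klc3* went from 4.76 to 10.0 FPKM, opposite in sign to *Ercc2*. *Ogg1* overlaps *Camk1* over 65 bases (4.20%), and *Camk1* went from 16.3 to 34.6 FPKM. *Tdg* overlaps *Glt8d2* over 367 bases (10.4%), which had 1.55 and 0.846 FPKM.

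In 13 of the genes, the start of an opposite gene lay within 1000 bases upstream or 500 bases downstream of their own. This gave 14 pairs with divergent starts, of which 6 had differences of the same sign. The pair of *Xrcc1* and *Pinlyp* could not be compared, since *Pinlyp* was at 0 in both libraries. Some other neighbours were near the floor, such as *Ccnb1ip1*, beside *Parp2*, at 0.105 and 0.103 FPKM. *Pms1* shares its start region with *Ormdl1*, at 16.3 and 11.4 FPKM, a difference of -0.51 beside -0.24. In other pairs the signs were opposite: *Lsm3* had 103 and 70.9 FPKM, a difference of -0.54 beside 0.26 for *Xpc*, and *Tsc2* had 13.6 and 13.0 FPKM, a difference of -0.066 beside 0.44 for *Nthl1*.

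Promoters are shown for the highest and the lowest difference in each pathway among genes with a RefSeq entry, so that the start regions of genes at opposite ends can be compared; *Ddb1* and *Mlh3* were not past the threshold. Each runs from 250 bases before to 50 after the start annotated by RefSeq (GRCm38.p6), 5′ to 3′ on the gene's strand, with motif matches in capitals. *Ung* lies on the plus strand (chr5:114130185-114130484), *Neil1* on the minus strand (chr9:57148256-57148555), *Xpa* on the minus strand (chr4:46196262-46196561), *Ddb1* on the plus strand (chr19:10605347-10605646), *Msh3* on the minus strand (chr13:92354954-92355253) and *Mlh3* on the minus strand (chr12:85270550-85270849), the last being 1 of 2 overlapping windows.
Ung: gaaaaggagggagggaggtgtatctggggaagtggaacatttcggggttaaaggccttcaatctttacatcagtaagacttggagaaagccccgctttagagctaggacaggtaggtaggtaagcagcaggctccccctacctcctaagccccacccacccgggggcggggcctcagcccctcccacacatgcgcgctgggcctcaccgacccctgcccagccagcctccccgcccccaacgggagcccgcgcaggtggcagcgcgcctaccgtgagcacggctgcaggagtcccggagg
Neil1: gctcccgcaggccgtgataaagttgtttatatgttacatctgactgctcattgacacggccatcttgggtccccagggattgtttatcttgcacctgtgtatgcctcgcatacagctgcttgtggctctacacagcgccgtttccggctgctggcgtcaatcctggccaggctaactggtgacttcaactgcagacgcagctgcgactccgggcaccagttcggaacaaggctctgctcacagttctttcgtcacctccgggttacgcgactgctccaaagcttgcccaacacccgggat
Xpa: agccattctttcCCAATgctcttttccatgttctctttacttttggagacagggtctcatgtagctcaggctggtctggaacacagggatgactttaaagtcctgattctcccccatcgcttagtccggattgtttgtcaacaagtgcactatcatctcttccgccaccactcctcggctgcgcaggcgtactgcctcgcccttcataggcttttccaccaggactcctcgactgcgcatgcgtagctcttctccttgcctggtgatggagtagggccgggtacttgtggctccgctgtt
Ddb1: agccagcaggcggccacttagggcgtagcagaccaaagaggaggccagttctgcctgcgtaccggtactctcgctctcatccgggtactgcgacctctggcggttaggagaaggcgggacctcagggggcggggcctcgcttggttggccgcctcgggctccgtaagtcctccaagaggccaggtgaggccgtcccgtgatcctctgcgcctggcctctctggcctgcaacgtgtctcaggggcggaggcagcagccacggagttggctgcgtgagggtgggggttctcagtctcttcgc
Msh3: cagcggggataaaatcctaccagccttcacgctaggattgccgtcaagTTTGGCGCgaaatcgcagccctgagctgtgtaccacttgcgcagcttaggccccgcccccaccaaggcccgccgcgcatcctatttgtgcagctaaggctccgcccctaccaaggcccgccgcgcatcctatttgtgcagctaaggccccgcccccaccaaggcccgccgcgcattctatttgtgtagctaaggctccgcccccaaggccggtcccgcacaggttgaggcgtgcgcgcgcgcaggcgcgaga
Mlh3: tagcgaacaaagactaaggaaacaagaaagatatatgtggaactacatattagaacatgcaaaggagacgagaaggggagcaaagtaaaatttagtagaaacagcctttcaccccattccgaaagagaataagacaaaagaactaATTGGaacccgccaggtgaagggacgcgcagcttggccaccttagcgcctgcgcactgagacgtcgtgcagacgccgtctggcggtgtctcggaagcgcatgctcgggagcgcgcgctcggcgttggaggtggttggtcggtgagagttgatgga

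The motifs searched on both strands were the RUNX motif TGTGGT, the E2F motifs TTTCCCGC and TTTGGCGC, and CCAAT, none of which contains another. *Msh3* holds TTTGGCGC from base -202 relative to its start, *Xpa* holds CCAAT from base -238, *Mlh3* holds CCAAT on the other strand, printed as ATTGG, and the windows of *Ung*, *Neil1* and *Ddb1* hold none of these motifs. RefSeq promoters were matched for 28 of the 34 genes, with 30 windows in all, and not for *Ddb2*, *Ercc3*, *Exo1*, *Neil2*, *Polb* and *Xpc*. Windows on chromosome 18, where *Ercc3* lies, were left out of all these counts. An E2F motif was in 2 of the 30 windows, those of *Msh3* and *Msh6*, a share of 6.67%. It was in 2.98% of the 10973 windows searched of genes that passed the filter and in 1.56% of all 32851 searched. A RUNX motif was in 5 windows (16.7%), those of *Ercc1*, *Ercc6*, *Apex1*, *Nthl1* and the downstream start of *Mutyh*, against 12.2% and 16.8%. None of these 5 genes was past the threshold. Their differences ran from 0.070 to 0.44, and the intervals of *Ercc6* and *Mutyh* covered 0. With the length trend removed, *Mutyh* had -0.024. Of all 11231 genes that passed the filter, 5728 lay above 0. CCAAT was in 20 windows (66.7%), against 37.9% and 37.4%. The windows held a median of 22 CpG, against 21 in those of genes that passed the filter. A match describes these letters and is not evidence of binding.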

How the data were processed

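Poly(A) RNA of 2 libraries, labelled KPR- and KPR_restored, was sequenced as directional paired-end libraries. The authors trimmed the reads, mapped them to mm10 using TopHat and deposited 1 FPKM value per gene, estimated using Cufflinks, for 23183 genes. Versions and the annotation are not given in the sources used here. FPKM was used as deposited, with log2(FPKM + 0.005) differences called at 0.5 either way among genes averaging 1 FPKM or more over both libraries. The pseudocount understates differences of low genes.

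Depth was estimated from 3987 genes of a single transcript length in GENCODE M21 (GRCm38, the same build as mm10), by the depth and mean fragment length (215 bases) that brought low values closest to whole fragments. Of the genes with 0.5 to 5.5 fragments, 80.4% in KPR- and 81.5% in KPR_restored lay no more than 0.1 from a whole fragment, against 20% for evenly spread values. Fragments per gene were rounded, with the longest transcript that has a RefSeq counterpart, and turned into exact Clopper-Pearson 95% limits of the log2 ratio. For ratios of genes, exact conditional limits were used. All intervals cover counting error only, compare the libraries and not the conditions, and are too narrow where shorter transcripts are used. The steps were tested on simulated counts drawn with the same transcript length per gene that the steps assume. Errors from the choice of transcript length were therefore not tested. With 1 library per group, no test between conditions was possible.

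The 34 genes and the other lists were chosen with earlier results of these data known, as were the pairs of partner genes. The neighbouring genes named were picked with their values in view. From each other pathway list, the 2 genes highest and the 2 lowest by the difference of log2(FPKM + 1) are named, except where a gene is not reported here. Alternatives were pseudocounts of 0.1 and 1, no filter and a mean FPKM of at least 5, a threshold of 1, TPM, upper quartile and median scaling, removal of the length trend, and the shortest coding transcript for the fragment estimates. Leaving out genes that overlap an opposite gene, and requiring the interval to exclude 0, were added after seeing the data. Computations ran in Python 3.11.15 with scipy 1.17.1, pandas 2.3.3 and numpy 2.4.6, and plots were drawn with matplotlib 3.10.9.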

Additional observations from a re-analysis of the deposited data

How the results depend on the processing

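No paired analysis was possible because each condition has 1 library. The counts of all genes depended on the filter and the threshold: 3002 genes were lower and 3193 higher without a filter, 641 and 872 with a mean FPKM of at least 5, and 155 and 325 at a threshold of 1. At a threshold of 1, the nucleotide excision repair genes had 0 higher, the base excision repair genes 1 lower (*Ung*) and 1 higher (*Neil1*), and the mismatch repair genes 0 lower. The base excision repair genes had 1 higher with a mean FPKM of at least 5, where *Neil1* was left out, and 1 with the length trend removed, where *Polb* fell short. With genes left out that overlap an opposite gene, an alternative added after the values were seen, 1 mismatch repair gene was lower, since *Msh3* was left out. With a pseudocount of 1, *Tdg* had -0.48 and was not called. The median of base excision repair was 0.022 without a filter, which adds *Neil2*, and changed sign with it. The other counts of the 3 pathways and of all genes stayed within 1.5 times of those reported, also where the counting interval had to exclude 0, an alternative added after the values were seen. The medians of the 3 pathways moved by less than the median half-width of their genes' counting intervals. *Mutyh* and *Pms2*, both near 0, changed sign with the length trend removed, and no called gene changed sign. The same correction moved *Ercc6* from 0.070 to 0.29 and the median of nucleotide excision repair from 0.056 to 0.019, turned the median of the other nucleotide excision repair genes from 0.078 to -0.020 and made 1 housekeeping gene lower. Among the other base excision repair genes, a mean FPKM of at least 5 left 1 higher and a median of -0.13, upper quartile scaling made 1 lower, and a threshold of 1 left 0 higher. At that threshold the resynthesis and ligation genes had 0 lower and 0 higher, and the G1/S and S phase genes 1 lower. With the shortest coding transcripts, which include incomplete models, the intervals of *Xpc*, *Ercc1*, *Ercc2*, *Apex1*, *Lig3*, *Mlh3* and *Neil3* covered 0. Depth limits *Neil2* most, with about 3 and 6 fragments.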
